A study of Mus musculus with 8 samples.

Results

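Introns of 60 to 150 bases are the shortest introns of mouse genes, and the reads inside them were set against those of their host transcripts in liver RNA collected around the clock. A member was any annotated intron of that length that overlapped no annotated exon, each location counted once, in a transcript whose mean value was 5 RPKM (reads per kilobase of feature, scaled to the depth of the library) or more over the 8 libraries. Of 239419 intron locations, 22155 were of that length, 17778 of those overlapped no exon, and 6501 also met the floor on expression. These 6501 introns belonged to 3245 transcripts and 2438 named genes, and 46022 introns of any length met the same conditions on overlap and expression. The shortest member had 62 bases, and the nearest intron below the length limit had 57. At the expression limit, introns of Sash1 and Vps36 lay just inside (5.00 and 5.01 RPKM) and introns of Actl6a, Tepsin and Senp6 just outside (4.99, 4.99 and, before rounding to 5.00, also under 5 RPKM). Their retentions were 8.98% for Sash1 and 2.20% and 18.4% for Vps36, and 6.51%, 59.5% and 2.42% outside. The members were thus chosen by length, position and measured transcript value, and none of these is given as a result.

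Splicing removes an intron by joining its first bases, the donor site that nearly always begins with GT, to its last bases, the acceptor site that ends with AG. In mammals the exon is usually the unit that the splicing machinery recognizes, whereas a very short intron can be recognized as a unit itself. An intron that stays in a finished, polyadenylated RNA is called retained, and such RNAs are often held in the nucleus or, where the intron brings a stop codon into the reading frame, can be degraded by nonsense-mediated decay.

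All libraries were made from polyA-selected liver RNA of wild-type (WT) C57/BL6 mice that had been moved from a light and dark schedule into constant darkness, so that circadian time (CT) counts hours of the internal day. The 8 groups were CT23, CT29, CT35 and CT41 in the first 24-h cycle sampled and CT47, CT53, CT59 and CT65 in the next. Each was 1 library from equal parts of the RNA of 3 animals, and no group had a replicate library. The labels give neither sex nor age. Because 1 pool stands for each time and each library had a sequencing lane of its own, time, pool and lane cannot be told apart. The tissue label held against markers: 7 hepatocyte genes summed to 43493 to 71694 RPKM per library, highest in CT35, while those of Kupffer cells summed to 11.3 to 18.0 and those of T and B cells to 1.03 to 2.98. In bulk tissue, fewer cells of a type and less RNA per cell cannot be told apart. A value of 1 RPKM stood, per kilobase of feature, for 11.7 to 13.9 reads in 7 libraries and for 22.9 in CT35, which also stood apart in the retention values given below.

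The members are shown first by the sequences of 9 introns, chosen to set introns with many reads beside introns with few. Each sequence was taken from a later GENCODE transcript (M21, build GRCm38) in which the intron lies inside an exon, and the coordinates are those of the deposited tables in mm9. Capitals mark the donor GT, the acceptor AG and the first stop codon in the frame of the upstream exons, which may overlap the donor or the acceptor. The first 4 lines are introns of high retention that carry a stop in frame. The next 3 also read high against their transcripts, but carry none and have a length that is a multiple of 3. The last 2 are introns of abundant transcripts with very few reads. Shfl and the 4 introns after it were named by their retention rank, and the other 4 were chosen after their values were seen.
Shfl intron 6: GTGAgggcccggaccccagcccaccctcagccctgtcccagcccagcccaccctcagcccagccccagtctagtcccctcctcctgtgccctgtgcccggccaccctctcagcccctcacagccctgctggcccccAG
Rexo1 intron 11: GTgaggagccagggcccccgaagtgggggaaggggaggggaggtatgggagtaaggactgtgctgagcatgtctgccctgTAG
Rnf126 intron 5: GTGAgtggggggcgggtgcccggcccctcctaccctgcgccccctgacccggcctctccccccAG
Tsc2 intron 37: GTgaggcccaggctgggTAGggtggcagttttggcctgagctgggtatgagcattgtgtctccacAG
Mettl17 intron 13: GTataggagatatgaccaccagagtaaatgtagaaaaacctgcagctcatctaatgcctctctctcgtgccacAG
Wdr18 intron 7: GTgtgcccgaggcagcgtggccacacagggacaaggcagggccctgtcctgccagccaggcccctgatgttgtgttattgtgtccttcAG
Ppp1ca intron 6: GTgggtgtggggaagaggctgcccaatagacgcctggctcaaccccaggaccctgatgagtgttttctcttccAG
Gstp1 intron 3: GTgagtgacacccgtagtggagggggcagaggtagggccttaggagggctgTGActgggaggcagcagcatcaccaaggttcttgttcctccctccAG
Fth1 intron 3: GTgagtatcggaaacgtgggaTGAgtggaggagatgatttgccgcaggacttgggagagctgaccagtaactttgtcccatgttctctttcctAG

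These introns lie at chr9:20677416-20677553 (Shfl, plus strand, 138 bases), chr10:80005227-80005309 (Rexo1, minus, 83 bases), chr10:79224245-79224309 (Rnf126, minus, 65 bases), chr17:24734083-24734149 (Tsc2, minus, 67 bases), chr14:52511227-52511301 (Mettl17, plus, 75 bases), chr10:79429215-79429304 (Wdr18, plus, 90 bases), chr19:4194907-4194981 (Ppp1ca, plus, 75 bases), chr19:4037192-4037289 (Gstp1, minus, 98 bases) and chr19:10059176-10059270 (Fth1, plus, 95 bases). All 9 lie between coding exons of their genes. In Shfl and Rnf126 the donor itself starts the stop, a TGA from base 2. In Rexo1 the stop is the last codon of the intron, a TAG from base 81.

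Retention was the value of the intron over that of its transcript, in percent, and the mean retention of an intron was taken from its means over the 8 libraries. Partly spliced RNA, other isoforms and fully retained RNA all contribute to it. The median mean retention of the 6501 introns was 13.3%, with quartiles of 6.19% and 25.9%. At the high end, 581 introns (8.94%) reached 50% or more and 131 (2.02%) reached 100% or more, and the 581 lay in 421 named genes. At the low end, 482 introns (7.41%) were under 2%, and 105 had no read in any library. Without CT35 the median was 13.9% and 638 introns reached 50%. The upper deposited value in place of the lower one left 564 of the 581 at 50% or more.

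These percentages do not run from 0 to 100. Per base, exons of 60 to 150 bases inside the same transcripts read at a median of 253% of their transcript (16744 exons), from 313% at 60 to 79 bases down to 217% at 120 to 150 bases, so the tables give short features more value per base than long ones. Measured against the exons on either side instead, the introns stood at a median of 6.25%, and a median of 13.4 reads lay in an intron for every 100 reads spliced across it (quartiles 6.66 and 25.5). At least 1 spliced read was seen across 6324 introns (97.3%). Among the 2115 introns with at least 40 reads over the 8 libraries, 165 held more reads than were spliced across them, and 61 reached 50% of their flanking exons.

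The value per base fell with length, while the number of reads in an intron did not fall beyond the short classes. Median retention was 20.7% for introns of 60 to 79 bases, 15.0% for 80 to 99, 11.3% for 100 to 119 and 10.2% for 120 to 150, and it went on falling beyond the members, to 8.72% just above, up to 200 bases, and 0.906% above 5000. Reads in the intron per RPKM of its transcript were 0.212, 0.177, 0.168 and 0.183 in the 4 short classes, 0.204 in the class just above and 1.28 above 5000 bases. The reads per 100 spliced reads were 18.8, 12.5, 12.6 and 13.5 in the 4 short classes, 15.6 in the class just above and 117 above 5000 bases. Per base the fall thus went on through all classes. Per intron the shortest class was above the other 3 short ones on both counts, and the class above 5000 bases was highest.

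**Figure D1:**
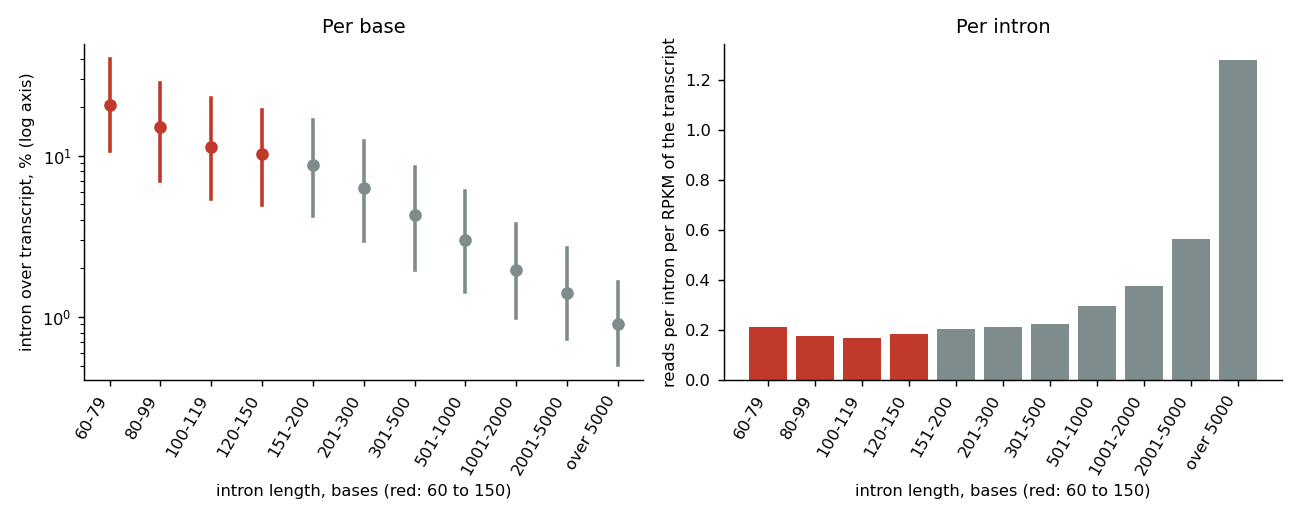
Retention and reads by intron length, for all introns in transcripts of 5 RPKM or more that overlap no exon. Left, median (points) and quartiles (lines) of intron over transcript in percent on a log axis; right, the median reads in an intron per RPKM of its transcript. The left values fall from 20.7% to 0.906%, while the 4 short classes on the right lie between 0.168 and 0.212.

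Within the same transcripts the short introns stood above the longer ones per base and below them per intron. In 2519 transcripts that had introns of both kinds, the median log2 of short over longer introns, with 0.5 RPKM added to both, was 1.06 ± 0.09 (SD over 8 libraries, n = 8). It was above 0 in all 8 libraries, from 0.90 in CT35 to 1.17 in CT53, and the exact two-sided sign-flip permutation test gave p = 0.0078, the smallest it allows. Counted as reads per intron it was -1.31, and -0.15 against longer introns of up to 300 bases alone (1310 transcripts), each also below 0 with p = 0.0078 by the exact permutation test. The libraries share the introns, so these tests speak of the spread between libraries alone. Exons inside the transcripts of the members also fell per base with length. Their median was 253% of the transcript at 60 to 150 bases and 182% above that, up to 300 bases. It was 130% from there to 1000 bases and 116% beyond (99 exons). The part of this fall in the difference between short and longer introns was not tested.

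The highest values belonged to a small and mixed set of genes. Named by rank among introns with at least 40 reads and a read in every library, the 12 highest were in 11 genes: AI480526, Shfl, Clic3 (introns 3 and 4), Rexo1, Cpsf1, Rnf126, Tsc2, Mettl17, Tymp, Gnat1 and Cdk16. Their mean retention lay between 239% and 433%. All are 65 to 138 bases long.

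Shfl encodes an interferon-induced inhibitor of ribosomal frameshifting, and its intron 6, printed above, read at 442% of its transcript in CT23, 286% in CT29, 223% in CT35, 374% in CT41, 339% in CT47, 292% in CT53, 343% in CT59 and 433% in CT65. These 8 values averaged 341% ± 74.8 (SD, n = 8), and the mean retention, from the means over the libraries, was 358%. The intron held 3079 reads against 731 spliced across it, 421 per 100, and stood at 79.1% of its flanking exons. CT35 was its lowest library and CT23 its highest, and no library fell under 200%. Rexo1, an RNA exonuclease homolog, had 372% in CT23, 172% in CT29, 124% in CT35, 367% in CT41, 261% in CT47, 396% in CT53, 253% in CT59 and 382% in CT65 at its last intron. That intron stood at 90.6% of its flanking exons, with 69.0 reads per 100 spliced. CT29 and CT35 were its 2 low libraries.

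Rnf126 encodes a ubiquitin ligase that acts in protein quality control. Its intron 5, of 65 bases, had 318%, 120%, 129%, 286%, 280%, 308%, 320% and 372% in the order of the times, so CT29 and CT35 were again lowest and the other 6 lay above both. Tsc2 encodes tuberin, which restrains the growth kinase mTORC1. Its intron 37 had 276%, 258%, 129%, 365%, 320%, 328%, 176% and 254%, but only 16.5% of its flanking exons and 25.3 reads per 100 spliced. Its flanking exons thus read far above the transcript too.

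Cpsf1, the largest subunit of the factor that recognizes the polyadenylation signal, held the widest range among the 12. Its intron 22 (chr15:76428331-76428405, minus strand, 75 bases) had 287% in CT23, 358% in CT29, 27.2% in CT35, 277% in CT41, 324% in CT47, 349% in CT53, 248% in CT59 and 272% in CT65. The 7 other libraries did not overlap CT35. With 228 reads against 274 spliced reads, it stood at 22.5% of its flanking exons. Mettl17, needed for the mitochondrial ribosome, had 158% to 331% at its last intron, and Cdk16, a cyclin-dependent kinase, had 184% to 319% at its last intron. Tymp, which encodes thymidine phosphorylase, had 146% in CT47 and 441% in CT59 at intron 8, with 274 reads per 100 spliced.

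The other 4 introns of the 12 showed few or no spliced reads. AI480526, Clic3 intron 3 and Gnat1 intron 2 had 642, 271 and 460 reads and 0 spliced reads, and Clic3 intron 4 had 205 reads and 10 spliced. Clic3 encodes a chloride intracellular channel protein and Gnat1 the alpha subunit of rod transducin. The introns of AI480526 and Clic3 were listed in noncoding transcripts, and Clic3 intron 4 had only 4 reads in CT29 and 1 in CT53. The 4 introns stood at 120% to 152% of their flanking exons, above the exons beside them. Across all members with at least 40 reads, 31 introns in 26 named genes (3 of the introns had no name) had no spliced read at all. Chosen after their values were seen, Gnat1 introns 3 and 4 were 2 more of these, at 140% and 113% of their flanking exons. Intron 6 of a noncoding transcript of Taok3, a stress-pathway kinase gene, was another chosen in that way, with 130 reads. Others of the 31 read low, such as the first intron of a noncoding Hpd transcript at 3.18% of its transcript. Hpd encodes a tyrosine-degrading dioxygenase. For these 31 introns the deposited high-quality junctions held no read of the annotated splice.

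**Figure D2:**
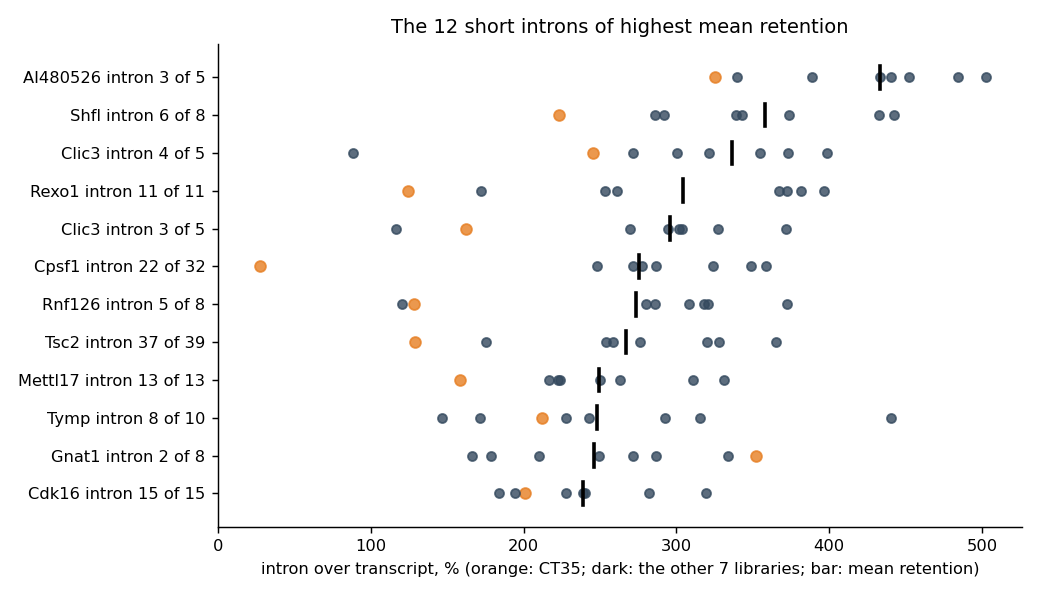
Retention of the 12 highest introns in each library, as intron over transcript in percent; each point is 1 library (orange CT35, dark the other 7) and the bar is the mean retention. CT35 is the lowest point in AI480526, Shfl, Rexo1, Cpsf1, Tsc2 and Mettl17 and the highest in Gnat1.

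At the other end stood introns of abundant transcripts that were almost fully removed. Gstp1 encodes a glutathione transferase of the detoxification system. Its intron 3 had 1.39%, 1.22%, 1.21%, 1.03%, 1.57%, 1.41%, 1.87% and 0.917% in the order of the times, with 205 reads against 17222 spliced reads. Fth1 encodes the heavy chain of ferritin, and its intron 3 ranged from 0.611% to 2.45%, with 118 reads against 9883. They stood at 0.585% and 0.569% of their flanking exons. Like Tsc2, both carry a stop in frame and lie inside an exon of an M21 transcript.

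Named by the number of transcript reads among introns without any read, the 6 lowest lay in Huwe1 (introns 7 and 11), Dync1h1 (intron 17) and Dst (introns 10, 16 and 23), genes of a ubiquitin ligase, the dynein heavy chain and a cytoskeletal linker. A count of 0 allows up to 3 reads, which is 1.40% to 5.46% of their transcripts, so a value like that of Gstp1 could not be told from 0 there. Such limits cover counting error alone. Spliced reads were seen across 5 of the 6, with 134 at Huwe1 intron 11 and 0 at Dst intron 10.

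The genes with most members showed how widely introns of 1 gene differ. Cpsf1 held 33 of them, counted over 3 transcripts, with a median of 14.9% and a range from 0.868% to 276%. Abca2, a lipid transporter gene, held 30, from 0% to 201% with a median of 10.2%. Kmt2d, which encodes a histone H3 lysine methyltransferase, held 28 (3.08% to 72.9%), and Tln1, which encodes talin, held 27 (3.48% to 64.1%). Over the 363 genes with 5 or more members, the highest intron was a median 3.05 times the median intron of its gene, and 171 of these genes had an intron at 50% or more. Introns of 1 transcript share their host, so these ranges are no spread between replicates.

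Last introns stood above the others. In transcripts with 3 or more introns, last introns had a median of 17.1% ± 2.51 (SD over 8 libraries, 725 introns) and the others 11.8% ± 1.54 (5412 introns). The difference of 5.29 percentage points was positive in all 8 libraries (exact sign-flip permutation test, adjusted p = 0.0117 over 3 comparisons, p = 0.0078). It was 2.36 points with flanking exons as denominator. First introns had 8.81% ± 1.27 (410 introns) against 12.6% ± 1.70, lower in all 8 libraries by the same test with the same p-values. Against their flanking exons, however, first introns were 0.85 points higher (exact permutation p = 0.0078), so the direction depends on the denominator. Introns whose length is a multiple of 3 did not pass the test, at 12.6% ± 1.77 (2045 introns) against 12.4% ± 1.68 (exact permutation, adjusted p = 0.234, higher in 5 of 8 libraries). The libraries share the introns here too, so these tests speak of the spread between libraries alone. Exons also fell per base with length, as given above, and the part of this in the flanking-exon comparisons was not tested.

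A later annotation listed part of the members as exon, more often the higher their retention. Of 6501 introns, 6356 were matched by transcript and intron number to GENCODE M21, and 499 of these lay inside an exon of another transcript of the gene. The share was 3.01% (14 of 465) for introns under 2% retention, 6.65% (110 of 1654) at 10 to 20%, 18.4% (80 of 434) at 50 to 100% and 27.0% (34 of 126) at 100% or more. The 499 had a median retention of 22.6% and the other 5857 one of 12.8%. By library the median ran from 16.7% to 25.5% for the first set and from 8.33% to 13.3% for the second. No test is given, because introns are not replicates and the retention that chose the classes is the readout itself. Of the 12 highest introns, 6 lay inside such an exon: those of Shfl, Rexo1, Rnf126, Tsc2, Mettl17 and Gnat1.

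**Figure D3:**
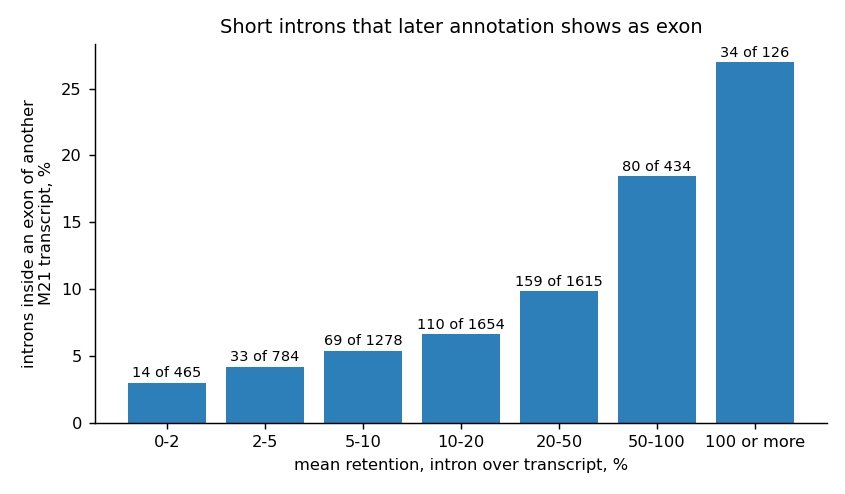
Share of matched short introns that lie inside an exon of another M21 transcript of the same gene, by class of mean retention (intron over transcript in percent). Bars start at 0 and carry the counts; the share goes from 3.01% in the lowest class to 27.0% in the highest.

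The place of an intron was read from a matched M21 transcript, which need not be the host whose value entered the retention. By this place, 5804 introns lay between coding sequence (median 13.3%), 103 in the 3' UTR (18.8%) and 67 in the 5' UTR (7.69%). Another 382 lay in transcripts with no coding sequence (14.1%). Mlxipl intron 3, for example, fell in this last set, while introns 6, 10 and 12 of the same host lay between coding sequence. The order of the first 3 was not the same against flanking exons, where the 5' UTR introns had 6.59% and the coding ones 6.04%. Over introns with a spliced read, the median reads per 100 spliced were highest in the 5' UTR, at 70. They were 16.5 in the 3' UTR and 12.7 between coding sequence, so the order depends on the measure.

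The 499 covered introns could be read base by base. GT began and AG ended 493 of them, and 6 began with GC. Over the 499, the donor hexamers GTAAGT or GTGAGT, searched on the transcript strand at the first base alone, began 24.4%. These hexamers began 35.3% of the 116 introns under 10% retention, 20.8% of the 269 at 10 to 50% and 21.9% of the 114 at 50% or more. Median GC content was 54.3%, 56.6% and 57.5% in the 3 classes. Gstp1 and Fth1, printed above, begin with GTGAGT, as does Rnf126.

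In the 478 covered introns of coding sequence, 340 brought a stop codon in frame, 103 brought none but shifted the frame, and 35 were open with a length divisible by 3. The median retention of these sets was 22.3%, 23.6% and 24.4%, close together beside quartiles that ran from about 10.3% to 52.8%. Among the open ones, the intron of Wdr18, a ribosome assembly gene, had 105% in CT29 to 266% in CT53. Ppp1ca, which encodes a catalytic subunit of protein phosphatase 1, had 31.5% in CT35 and 93.3% to 192% in the other 7 libraries at its last intron. Spliced reads outnumbered intron reads at both, with 25.5 reads per 100 spliced in Wdr18 and 23.6 in Ppp1ca. These introns stood at 26.1% and 37.3% of their flanking exons.

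Among genes of RNA processing, list medians of retention lay near that of the whole set, while those of reads per 100 spliced lay below it. All 6501 members had a median of 13.3%, 54 introns of spliceosome genes one of 10.8%, 11 of SR proteins and their kinases one of 12.8%, and 42 of hnRNPs and other RNA-binding proteins one of 14.9%. Median reads in the intron per 100 spliced were 10.7, 6.26 and 8.88 in the same order of lists, beside 13.4 for all members. The shares at a retention of 50% or more were 3 of 54, 2 of 11 and 1 of 42, beside 8.94% of all. Snrnp200, the helicase that unwinds U4 from U6, had 42.4% in CT35 and 59.7% to 136% in the others at intron 32. U2af1l4, a relative of the factor that binds the acceptor AG, had 25% in CT35 and 54.6% to 143% in the others at intron 6. Clk3, a kinase of SR proteins, had 39.1% to 121% at intron 8, and Srrm2, a scaffold of nuclear speckles, 43.3% to 99.6% at its last intron. Ptbp1, the polypyrimidine tract binding protein, had 14.7% in CT35 and 39.7% to 77.6% in the others at intron 11. Reads per 100 spliced were 13.3 at the Snrnp200 intron and 14.8 at that of Clk3, near the 13.4 of all members. They were 53.9 in U2af1l4, 93.1 in Srrm2 and 45.2 in Ptbp1. In Snrnp70, a protein of the U1 particle, 1 intron read at 52.8% and another, chosen after it was seen, at 1.94%. Genes known for a retained or detained intron had no short intron at 50% or more: 17 introns of 7 genes had a median of 8.97%, and the highest with at least 40 reads was Ddx5 intron 4, an RNA helicase gene, at 26.7% (19.6% by the upper value).

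Genes of liver metabolism included well-covered members. In 18 genes of lipid and cholesterol synthesis, 67 introns had a median of 18.2%, and 5 (7.46%) reached 50%, beside 8.94% of all members. Mlxipl encodes ChREBP, the transcription factor that answers to glucose and drives lipid synthesis. Its intron 10 (chr5:135609047-135609121, plus strand, 75 bases) had 218% in CT23, 132% in CT29, 106% in CT35, 289% in CT41, 160% in CT47, 190% in CT53, 220% in CT59 and 239% in CT65, on 4113 reads against 5629 spliced reads. It stood at 48.8% of its flanking exons. CT41 and CT65, the same clock phase a day apart, were its 2 highest libraries. CT35 was its lowest, while CT59, of the same phase as CT35, was at 220%. The intron was not called for a 24-h component by the test given below (limma adjusted p = 0.754). The other members in Mlxipl, chosen after their values were seen, read far lower: 56.7% at intron 6, 17.1% at intron 12 and 4.78% at intron 3. Intron 12 was highest in CT35 (26.3%), where introns 6 and 10 were lowest.

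Fasn, the fatty acid synthase, had similar values in all libraries. Its short intron, listed in a 2-exon transcript, had 88.6%, 86.7%, 70.1%, 81.7%, 83.4%, 82.5%, 70.6% and 76.4% in the order of the times (SD 6.98, n = 8), on 2395 reads and at 50.6% of its flanking exons. Srebf1, the sterol-response transcription factor, had 39.7% in CT35 to 107% in CT59 at intron 14, with 391 reads against 163 spliced. F7, coagulation factor VII, had 33.6% in CT35 to 120% in CT29 at intron 3.

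C3, the central complement protein, also had well-covered members. Intron 9 (108 bases) had 109% in CT23, 66.3% in CT29, 13.6% in CT35, 91.9% in CT41, 73.3% in CT47, 124% in CT53, 82.7% in CT59 and 116% in CT65, on 13447 reads. Intron 10 (85 bases) had 20.9% in CT35 and 63.3% to 104% in the others. The 7 libraries did not overlap CT35 at either intron. Against 141783 and 42891 spliced reads, these are 9.48 and 23.5 reads per 100, and the introns stood at 8.20% and 8.23% of their flanking exons. Reads were thus uneven along C3, and the ratio to the whole transcript gives its introns a higher rank than the ratio to the neighbouring exons.

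**Figure D4:**
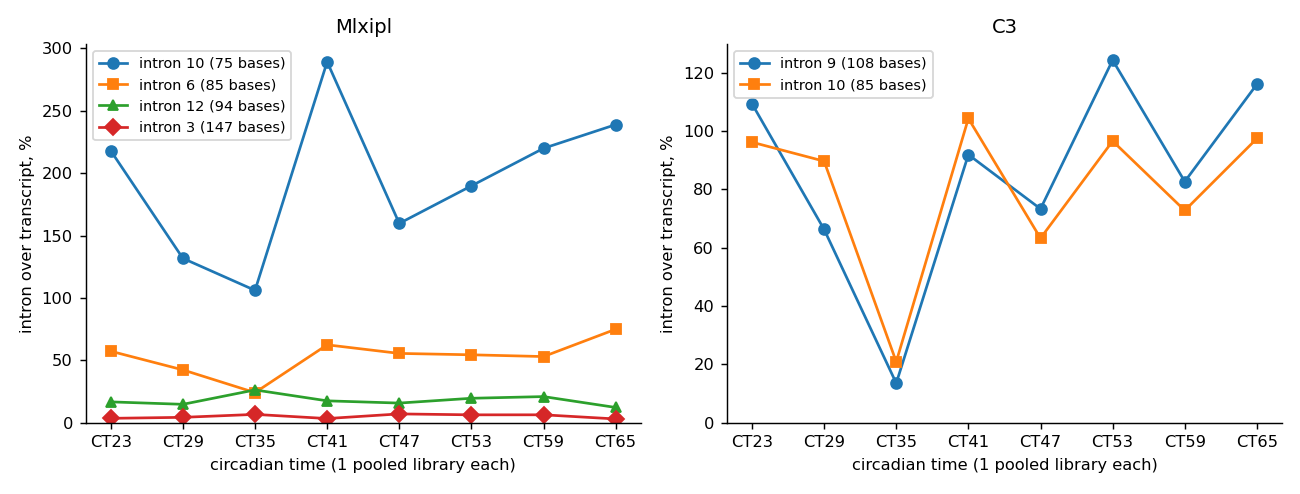
Retention of the short introns of Mlxipl (left) and of introns 9 and 10 of C3 (right) by circadian time, as intron over transcript in percent; each point is 1 library of 3 pooled animals, so points carry no error bar. Mlxipl introns 6 and 10 and both C3 introns are lowest in CT35, whereas Mlxipl intron 12 is highest there.

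Of 50 introns in 24 cytochrome P450 genes, the oxidases of drug, steroid and bile acid metabolism, 12 (24%) reached 50%, beside 8.94% of all members, and the median was 21.3%. Cyp4f14 intron 10 had 49.0% in CT35 and 78.0% to 175% in the others. Cyp2d12 intron 8 and intron 1 of the pseudogene Cyp2d37-ps had 222% and 136%, with 4 and 42 spliced reads against 166 and 807 reads. Because members of this family are near copies, reads may be shared between them. In 99 introns of plasma protein genes the median was 13.0%, and in 36 of glucose metabolism 18.0%.

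In genes of basic cell machinery, medians were 10.6% for 43 introns of cytosolic ribosomal proteins, 12.4% for 30 of oxidative phosphorylation and 11.2% for 39 of the proteasome. Of these, 2 (4.65%), 3 (10.0%) and 0 reached 50%, beside 8.94% of all members. Ndufs8, a subunit of respiratory complex I, had 27.2% in CT35 and 67.6% to 106% in the others at its last intron, on 412 reads. Psmc2, a proteasome ATPase, had 13.5% in CT35 and 35.7% to 72.1% in the others at intron 11. The Psmc2 intron held 13.2 reads per 100 spliced and the Ndufs8 intron 24.2, beside a median of 13.4 for all members. Introns of Gapdh, Rps12 and Fau are uncertain, because the deposited lower and upper values give them very different retentions. Gapdh intron 6 had 215% by the lower and 12.9% by the upper value, Rps12 intron 2 had 112% and 13.6%, and Fau intron 3 had 49.7% and 9.65%.

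Clock genes had few members with enough reads. The 22 introns of 7 clock genes had a median of 23.7%, 1 reached 50%, and 3 had at least 40 reads. Nr1d1, the gene of the nuclear receptor REV-ERB alpha, had 50.7% in CT23, 23.5% in CT29, 17.9% in CT35, 33.8% in CT41, 67.5% in CT47, 52.1% in CT53, 32.8% in CT59 and 28.0% in CT65 at intron 3. CT53 and CT29 held 92 and 28 of its 146 reads, and CT23, CT41, CT47 and CT65 held 1 to 3 each, so no order of the times can be read from these values. Per1, a repressor of the clock, had 60.7% at intron 8 and 33.9% at intron 5 on 50 and 42 reads. Both had no read in CT23, where the transcript was at 1.58 RPKM. None of the 3 was called for a 24-h component.

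The study's times cover 2 cycles of 24 h, and the main question for the members was whether retention followed a 24-h course. No intron was called. The test was limma on log2 of intron over transcript, with 0.5 RPKM added to each, over 23937 introns of any length with at least 40 reads. An adjusted p under 0.05 was a call. Over all introns 0 were called (0.0%), and over the 2115 members 0 were called. The number with an unadjusted p under 0.05 was 2062 of all introns (8.61%) and 183 of the members (8.65%), so the members were near the background. Between opposite phases, 0 members were called by limma for CT23 against CT11, with 244 (11.5%) at an unadjusted p under 0.05 beside 9.47% of all. For CT5 against CT17 it was 0, with 119 (5.63%) beside 6.77% of all. By edgeR on the recovered reads, 0 members were called, beside 10 of all 23937 introns. An unadjusted edgeR p under 0.05 was found for 93 of the 2115 members and 1244 of all introns. On simulated reads for this comparison (23937 introns), 1 of 100 short introns changed 2-fold from peak to trough was called, 25 of 100 changed 4-fold and 82 of 100 changed 16-fold. Among the introns with at least 160 reads, 0 of 31 changed 2-fold and 15 of 29 changed 4-fold were called. Changes of 2-fold were thus rarely called by this test in the simulated reads, also in well-covered introns. Those reads were drawn with the same set spread for every intron and without the lower retention of CT35 given below. The rates hold for that setting and were not measured on the real libraries.

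The 4 members of smallest p are given as values. Hsp90b1 encodes a chaperone of the endoplasmic reticulum. Intron 2 of one of its noncoding transcripts had 10.3% in CT23, 4.18% in CT29, 2.27% in CT35, 4.16% in CT41, 9.31% in CT47, 6.03% in CT53, 3.06% in CT59 and 4.98% in CT65. CT23 and CT47 were the 2 highest and CT35 and CT59 the 2 lowest libraries, and the fitted range was 1.82 ± 0.28 (SE) on the log2 scale (limma adjusted p = 0.102). Slc25a22, a mitochondrial glutamate carrier gene, had 6.69%, 3.30%, 14.6%, 18.4%, 6.92%, 6.41%, 8.60% and 22.6% at intron 7, highest in CT41 and CT65 (2.15 ± 0.35, limma adjusted p = 0.113, 63 reads). Tymp intron 2 was also highest in CT41 and CT65, at 33.3% and 38.2%, and lay between 6.72% and 25.6% in the others (2.01 ± 0.35, limma adjusted p = 0.129). Eif5a encodes a translation factor, and intron 2 of one of its transcripts had 2.65% and 3.63% in CT29 and CT53 and 0.382% and 0.25% in CT41 and CT65 (2.70 ± 0.43, limma adjusted p = 0.110, 43 reads against 1 spliced, with 1 read in each of CT41 and CT65). These 4 crossed the threshold under a pseudocount of 2 RPKM or array weights: their lowest adjusted p over all alternatives was 0.037, 0.039, 0.027 and 0.039, in the order named, and the highest 0.818.

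Over all members, retention was lowest in CT35. Median retention was 13.0% in CT23, 11.3% in CT29, 8.72% in CT35, 13.3% in CT41, 13.9% in CT47, 13.1% in CT53, 13.6% in CT59 and 12.7% in CT65. Apart from CT35 the range was 11.3% to 13.9%. CT59, of the same phase as CT35, was at 13.6%, among the highest. A 24-h curve took up 28.9% of the variance of these 8 values (exact permutation test over all orders of the 8 times, p = 0.479). Without CT59 it was 68.2% (exact permutation p = 0.044), and without CT35 it was 15.9%.

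In CT35 the shift reached most well-covered members, though by unequal amounts. Over the 542 members with at least 160 reads, CT35 was below all 7 other libraries in 343 (63.3%) and above them all in 35 (6.46%). The other libraries' median was 1.84 times the CT35 value at the median intron, with quartiles of 1.27 and 2.87. Introns over 1000 bases showed a like shift: CT35 was below all others in 59.1% of 5877, and 1.74 times lower at the median. Summed over the members, 6.59 reads lay in introns per 100 spliced reads in CT35, beside 11.8 in CT29 and 14.0 to 15.7 in the other 6. CT35 also had the most reads and the highest sum of hepatocyte markers, given above, and the part of these in the shift was not tested.

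**Figure D5:**
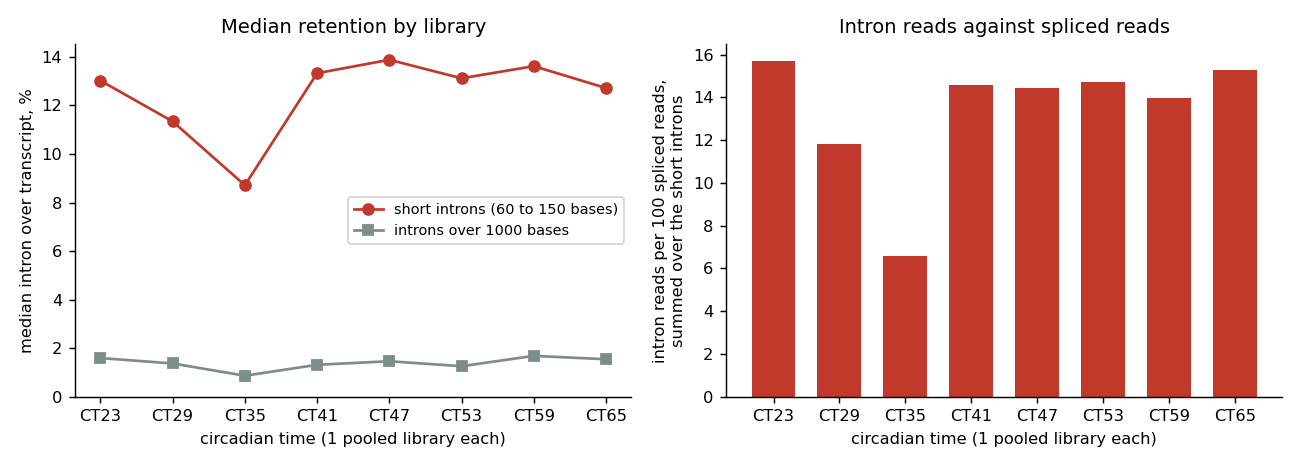
Short-intron retention by library. Left, the median of intron over transcript in percent for short introns (red) and introns over 1000 bases (grey); right, reads in short introns per 100 reads spliced across them; each value is 1 pooled library, with no error bar. CT35 is lowest in both, at 8.72% and 6.59.

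The spread between libraries bounds what could be seen for single introns. Over the 542 well-covered members, the SD of the log2 ratio over the 8 libraries was 0.49 at the median. Libraries of the same phase a day apart differed by a median of 0.29 to 0.41 on the log2 scale in 3 pairs, and by 0.91 for CT35 and CT59. Pairs of different phases without CT35 differed by 0.24 to 0.45, a range that takes in that of the 3 pairs of 1 phase.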

How the data were processed

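Per the labels' protocols, polyA RNA of 8 liver pools of 3 animals each was fragmented and sequenced. The build was mm9, per the submitters' processing notes. The deposited transcript tables give for each transcript, exon and intron a lower and an upper value named min and max, per the file headers. They are another number in form, and scale as RPKM: the lower value was a whole multiple of 1 step (tolerance 0.1 read) for 96.1 to 99.1% of the transcripts of a library, which gave the reads behind each value. In the deposited junction tables each splice junction has its count of spliced reads, a whole number. The quantifying program, read length and strand setting are not stated in the labels, so reads of overlapping genes on opposite strands cannot be separated.

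Retention was the lower intron value over the lower transcript value. Because the values are no counts, limma 3.58.1 (trend, robust) in R 4.3.3 was run on log2((intron + 0.5)/(transcript + 0.5)) with a cosine and sine of 24 h, origin CT23, leaving 5 residual degrees of freedom, for introns with at least 40 reads; Benjamini-Hochberg adjustment took in every intron tested. The p-values speak of how pooled libraries scatter around the curve, not of animals. Library medians were tested by exact permutation. The fit was tested on simulated data; 2 of 1815 unchanged short introns were called there. Alternatives were other pseudocounts, filters and denominators, the upper value, equal medians and array weights. Others took the 24-h cycle sampled as a block, used edgeR 4.0.16 on recovered reads with the transcript as offset, or left out each library. GENCODE M21 gave names, coding regions and the sequences of covered introns, matched by transcript, intron number and length. Coding or noncoding thus describes a matched transcript that lists the intron, which need not be its host. No coordinates were carried between builds.

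The members, lists and rules were chosen with earlier results of these data known. Named were the 12 introns of highest mean retention with at least 40 reads and a read in every library, called introns or else the 4 of smallest p, the 6 without reads in the transcripts of most reads, up to 3 of highest retention per gene list, clock gene introns with 40 reads, and the 4 hosts with most members; others are marked as chosen after their values were seen.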

Additional observations from a re-analysis of the deposited data

How the results depend on the processing

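With no replicate libraries, the p-values of the curve rest on 8 points, and most members had too few reads for a test (4386 of 6501). The 24-h count of 0 members became 7 with a pseudocount of 2 RPKM and 4 with array weights, and stayed 0 under the other alternatives run. For CT23 against CT11 it became 3 of 2115 members with a pseudocount of 2. Of all 23937 introns, 61 were then called as higher at CT23 and 26 as lower. For CT5 against CT17 the member count became 5 with a pseudocount of 2 and 4 with array weights. It was 0 to 1 when 1 library was left out, the 1 without CT35. Of all introns, 39 were called as higher at CT5 and 45 as lower with a pseudocount of 2. With array weights these were 32 and 51, and without CT35 they were 10 and 22. Over all introns, the 24-h count of 0 became 173 with a pseudocount of 2, 92 with array weights, 13 with flanking exons, 10 by edgeR, 6 with at least 160 reads and 2 without CT65. Chosen after seeing the data, the equal-median fit without CT35 called 0 members in all 3 tests, and over all introns 0 for the 24-h component and, for CT5 against CT17, 9 as higher and 10 as lower. Fitting the 24-h cycle sampled as a block, also chosen after seeing the data, called 0 members and 0 of all introns in the 3 tests. For the 24-h component, 204 of 2115 members had an unadjusted p under 0.05 in this limma fit, beside 1932 of all 23937 introns. The share of variance of the library medians in a 24-h curve ran from 15.9% to 68.2% when 1 library was left out, the highest without CT59. Short over longer introns was reversed by reads per intron (-1.31) and by reads per intron against longer introns up to 300 bases (-0.15), both chosen after seeing the data; it was 0.77 against longer introns up to 1000 bases, 1.52 with a pseudocount of 0.1 and 1.04 to 1.08 when 1 library was left out. First against other introns was reversed with flanking exons (0.85 points). Divisibility by 3 was reversed with flanking exons (-0.056) and in transcripts of 20 RPKM or more (-0.21), and passed the test as a mean log2 ratio (0.022, exact permutation p = 0.0156); the cause was not tested. Last against other introns kept its direction and its side of the threshold in all alternatives run. The median retention and the counts at 50% and 100% moved little when any library was left out: 13.1% to 13.9%, 559 to 638 introns, and 120 to 142 introns. Of 1388 single values over 71 named introns, 7 crossed the threshold and 1381 did not. Replicate numbers pair no libraries, since each time has 1.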
